A study of Mus musculus with 8 samples.

Results

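The genes described are those of the KAP1 corepressor complex: Trim28, which encodes KAP1 itself, its relative Trim24, the methyltransferase gene Setdb1, the heterochromatin protein genes Cbx1, Cbx3 and Cbx5, the remodelling and deacetylase genes Chd4, Hdac1 and Hdac2, and Mbd1. They were chosen by name, and every array probe annotated with 1 of these 10 symbols was taken. The array held 22 such probes for 8 of the 10 genes, out of 19057 genes with a probe. No probe carried the symbol Cbx1 or Hdac1, so these genes were not analysed here.

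KAP1 is a scaffold protein, which zinc finger proteins with a KRAB domain carry to their DNA sites. It recruits SETDB1, which methylates lysine 9 of histone H3, and heterochromatin protein 1 (HP1), which binds that mark. It also binds the NuRD complex, in which CHD4 moves nucleosomes and HDAC1 and HDAC2 remove acetyl groups from histones. The complex is best known for silencing transposable elements in embryonic stem cells, and it also acts on genes in differentiated cells.

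RNA came from bone marrow cells of mice aged 8 to 12 weeks, sorted for the transferrin receptor CD71 and the erythroid surface marker Ter119, a gate that enriches for red cell precursors. It was hybridised to Illumina bead arrays, on which a gene's level is the fluorescence of a probe. The comparison was of 4 samples labelled KAP1 KO (A4, A8, A11, A13) with 4 labelled KAP1 WT (C4, C6, C8, C9), and values are given in this order throughout. The labels give both groups as Kap-flox/stopfloxYFP, on a mixed strain, so the WT samples share the floxed allele and the stop-flox YFP reporter. The Cre driver is not given in the sources used here, and nothing says that each sample is a separate mouse, so the spread behind each p-value may be technical. The deposited intensities have a floor of 20, and a value at the floor is only an upper limit. KO sample A8 stood somewhat apart, with a mean correlation to its own group of 0.894 over the tested probes, against 0.934 to 0.95 for the other arrays.

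A probe was tested if at least 4 of the 8 arrays were above the floor, which held for 12259 of 45281 probes and for 11 of the 22 probes of the complex genes. The 11 tested probes cover 7 genes: Trim28, Setdb1, Cbx3, Cbx5, Chd4, Hdac2 and Mbd1. Of the other 11 probes, 5 were at the floor on all 8 arrays, 5 were above it on 1 array, and the other one was above it on 3. KO was compared with WT in limma, with Benjamini-Hochberg adjustment over all 12259 probes and a threshold of 0.05.

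Trim28 was the single gene of the complex to pass, as lower in KO cells, and no partner passed in either direction. Its probe (ILMN_1227225) read 207, 171, 141.5 and 131 in the KO samples. The WT samples read 740, 395, 641 and 406. The groups did not overlap: the lowest WT sample was 1.91-fold above the highest KO sample. The mean log2 intensity fell from 9.04 ± 0.46 to 7.32 ± 0.30 (SD, n = 4 each), a log2 fold change of -1.71 (SE 0.27, limma adjusted p = 0.0085). This leaves 30.5% of the WT signal in KO cells, with a 95% interval from 20.1% to 46.2%. Among the 12259 tested probes, 160 had a larger fall and 157 a smaller p-value.

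Trim28 is the targeted gene, so its fall bears on the labels and is not independent of the design. The sources used here do not place the probe relative to the deletion, and a probe outside it would not check the deletion. In sorted bulk RNA, fewer cells with the transcript and less transcript per cell cannot be told apart. The call held whichever sample was left out, with adjusted p between 0.00887 and 0.0356. It was lost when all 45281 probes were tested without a filter (adjusted p = 0.0925 in limma), and when the p-values of the authors' deposited table were adjusted (0.0903).

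Across the array, 2.46% of tested probes passed as higher in KO cells and 3.11% as lower. Of the 11 tested probes of the complex genes, 0 passed as higher and 1, that of Trim28, as lower. At an unadjusted p under 0.05, 5 of the 11 were higher, against 14.6% of all tested probes, and 2 were lower, against 10.4%. In 4 probes every KO sample was above every WT sample, which held for 10.5% of all tested probes. The reverse held for Trim28 alone, against 7.31% of all. These probes include 3 of Chd4, 2 of Cbx3 and 2 of Mbd1, so they are not independent of each other. The median log2 fold change of the 10 tested partner probes was 0.59, with 6 of 10 above 0. The median over all tested probes was 0.09, with 56.0% above 0.

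**Figure D1:**
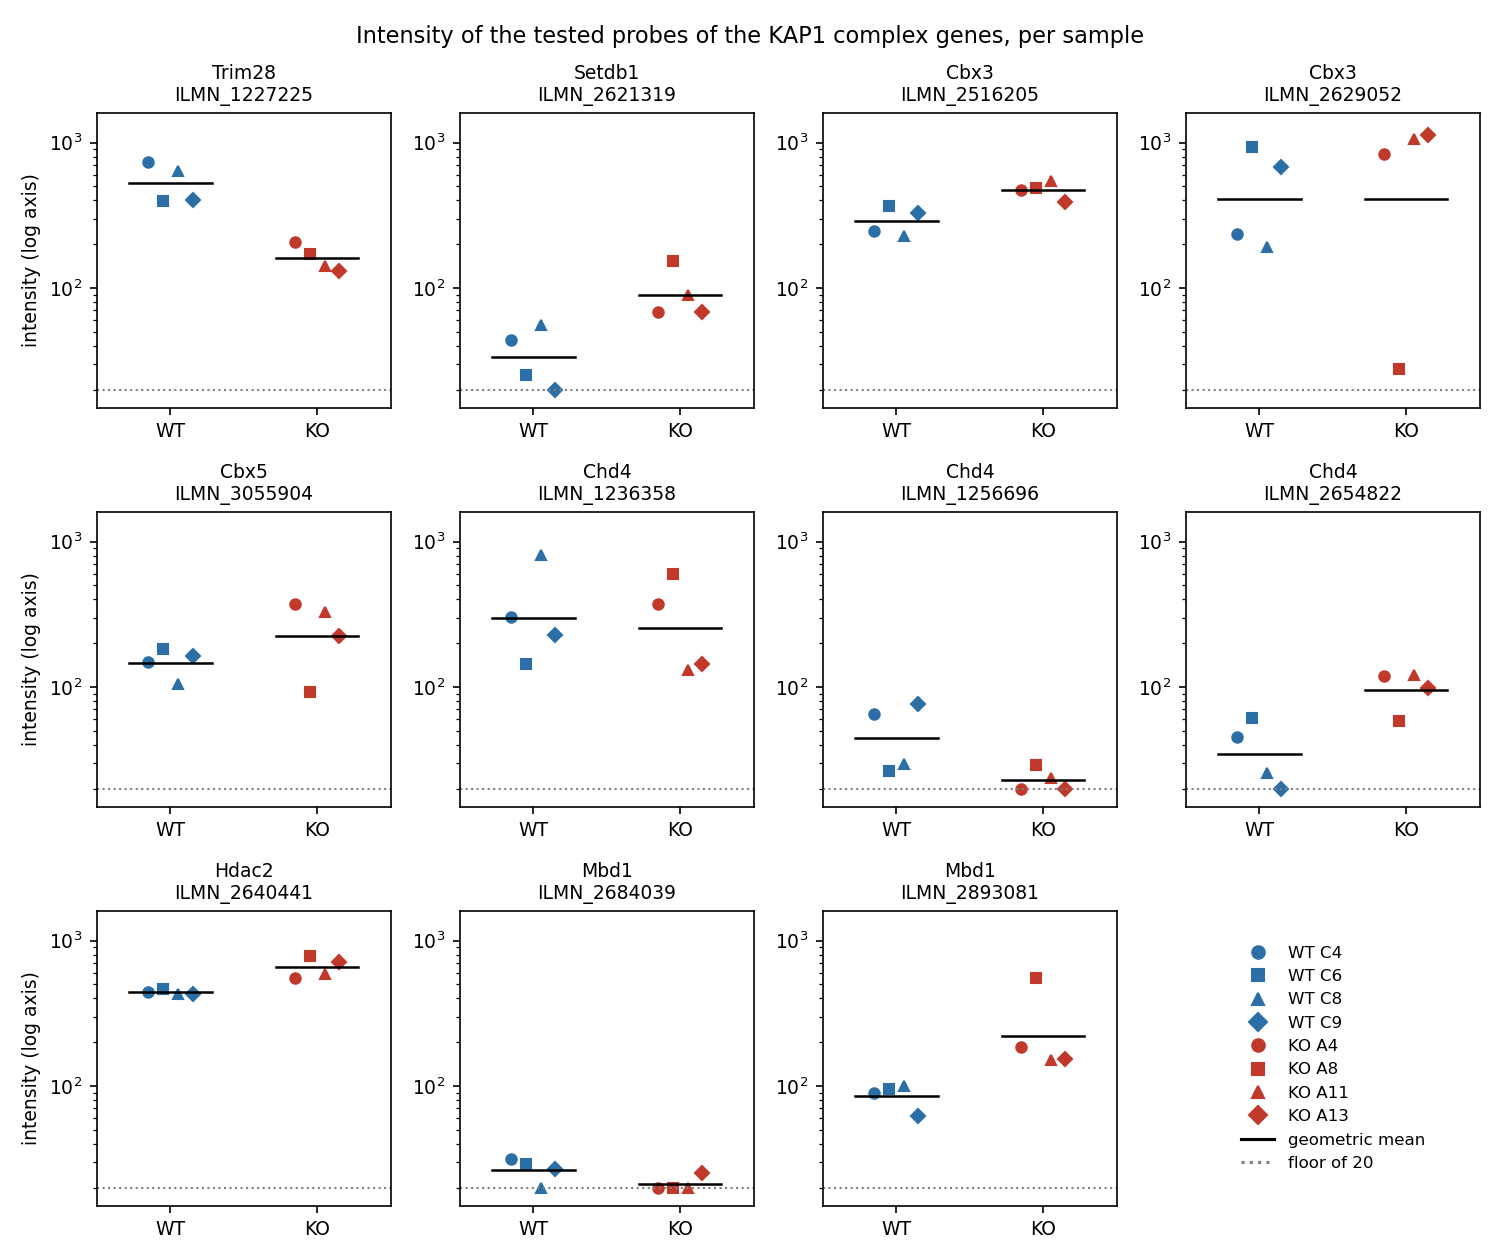
Intensity (log axis) of the 11 tested probes of the complex genes in each WT and KO sample, with 1 symbol per sample, the geometric mean of each group as a line and the floor of 20 dotted. Trim28 lies lower in all 4 KO samples, while Setdb1, Hdac2, Cbx3 at ILMN_2516205 and Mbd1 at ILMN_2893081 lie higher in all 4. KO sample A8 is at 27.5 for Cbx3 at ILMN_2629052, where the other KO samples read 835 to 1132.

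SETDB1 is the enzyme through which KAP1 deposits histone H3 lysine 9 trimethylation. Its gene has 1 probe (ILMN_2621319), which read 68.2, 154, 89.4 and 68.3 in the KO samples. The WT samples read 44.2, 25.3, 55.4 and 20, with C9 at the floor. Every KO sample was above every WT sample, though the WT values were dim, from 20 to 55.4. The mean log2 intensity was 6.48 ± 0.55 in KO and 5.06 ± 0.68 in WT (n = 4 each), a 2.68-fold difference. With C9 at the floor, the fold is understated if the true signal there was lower. The difference did not pass in limma (log2 fold change 1.42, SE 0.38, adjusted p = 0.0643), and its 95% interval ran from 0.56 to 2.29.

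HP1 proteins read H3 lysine 9 methylation and bind KAP1 directly. Cbx3 encodes the HP1 gamma form, and its 2 bright probes differed from each other. The probe annotated to a cDNA record (ILMN_2516205, AK002910) read 474, 489, 545 and 393.5 in the KO samples, and 248, 367, 228 and 328.5 in the WT samples. All KO samples were above all WT samples, by a mean of 1.64-fold (log2 fold change 0.72, SE 0.21), without passing in limma (adjusted p = 0.0848). It passed in limma without WT sample C6 (log2 fold change 0.84, adjusted p = 0.049). Without C6, 557 of all tested probes passed as higher and 586 as lower, against 301 and 381 with all samples.

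The other bright Cbx3 probe (ILMN_2629052, NM_007624) read 835, 27.5, 1065 and 1132 in the KO samples. It read 236, 929, 192 and 678 in the WT samples. Here A8 was close to the floor, although it read 489 at the first probe, and C4 and C8 were well below C6 and C9. Its log2 fold change was -0.01 (95% interval -2.61 to 2.59, adjusted p = 0.997 in limma), and 1.29 without A8 (adjusted p = 0.191). Its remaining probe was above the floor in A11 alone, at 24.1.

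Cbx5 encodes HP1 alpha, a component of pericentric heterochromatin. It was measured at 1 of its 3 probes, annotated to the transcript record NM_001076789, and both probes for the record NM_007626 were at the floor in all samples. The measured probe (ILMN_3055904) read 374, 92.5, 326 and 226 in the KO samples and 148, 184, 105 and 162 in the WT samples. A8 was again the low KO sample, and it lay below all WT samples while the other KO samples lay above them. The log2 fold change was 0.62 (95% interval -0.33 to 1.56, adjusted p = 0.387 in limma), and 1.04 without A8 (adjusted p = 0.0614).

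Chd4 encodes the ATPase of NuRD, also known as Mi-2 beta, and its 3 tested probes pointed in different directions. The brightest (ILMN_1236358) read 372, 596, 130 and 143.5 in the KO samples, and 303, 144, 806 and 229 in the WT samples. Both groups spanned more than their difference, and the log2 fold change was -0.24 (95% interval -1.64 to 1.16, adjusted p = 0.832 in limma). This probe turned to a positive value when A11, A13 or C8 was left out, with 0.08, 0.03 and 0.24.

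A second Chd4 probe (ILMN_2654822), annotated to the same transcript record, read 120, 58.1, 122 and 97.6 in the KO samples. It read 45.4, 61.1, 25.8 and 20 in the WT samples, with C9 at the floor. KO exceeded WT by 2.76-fold on average, and only A8 and C6 overlapped. The log2 fold change of 1.46 (SE 0.39) did not pass with all samples (limma adjusted p = 0.0618), and did without A8 (0.0415) or without C6 (0.0278). Leaving out C6 raised the calls over the whole array, as given above. Another probe (ILMN_1256696), annotated to a cDNA record and dim, was lower in KO cells by 1.94-fold (adjusted p = 0.149 in limma). It was above the floor in 2 KO samples, at 28.9 and 23.8, and in all 4 WT samples, from 26.3 to 76.0. The untested Chd4 probe exceeded the floor on 3 arrays, at 34.3 in A4, 39.2 in A11 and 25.6 in C6.

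Hdac2 encodes a class I histone deacetylase of NuRD and of other corepressor complexes. Its measured probe (ILMN_2640441) read 557, 789, 593 and 713 in the KO samples. The WT samples read 443, 463, 432 and 432, the tightest WT group among the 11 tested probes. All KO samples were above all WT samples, by a mean of 1.48-fold. The log2 intensity was 9.36 ± 0.23 in KO and 8.79 ± 0.05 in WT (n = 4 each), and the difference of 0.57 (SE 0.18, 95% interval 0.17 to 0.97) did not pass in limma (adjusted p = 0.0943). The other Hdac2 probe read 20.1 in A4 and was at the floor elsewhere.

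MBD1 binds methylated CpG sites and partners with SETDB1. Its gene had the most probes, 6 in all, of which 2 were at the floor on every array and 2 exceeded it on 1 array. The brightest one (ILMN_2893081) read 185, 556, 152 and 152.5 in the KO samples, and 89.5, 95.5, 99.9 and 62.1 in the WT samples. The groups did not overlap, and A8 was far above the other KO samples. The 2.59-fold difference did not pass in limma (log2 fold change 1.37, SE 0.41, adjusted p = 0.0857), and without A8 the log2 fold change was 0.93 (adjusted p = 0.0517). The other tested probe (ILMN_2684039) stayed at or below 31.2 in every sample, with a log2 fold change of -0.31 (adjusted p = 0.355 in limma).

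Trim24 encodes TIF1 alpha, a relative of KAP1 that reads histone marks through a bromodomain. One of its 2 probes was at the floor in all 8 samples, and the other read 42.6 in A8 and was at the floor in the other 7. The arrays therefore gave no measured level of Trim24 in 7 samples, and no comparison was made.

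**Figure D2:**
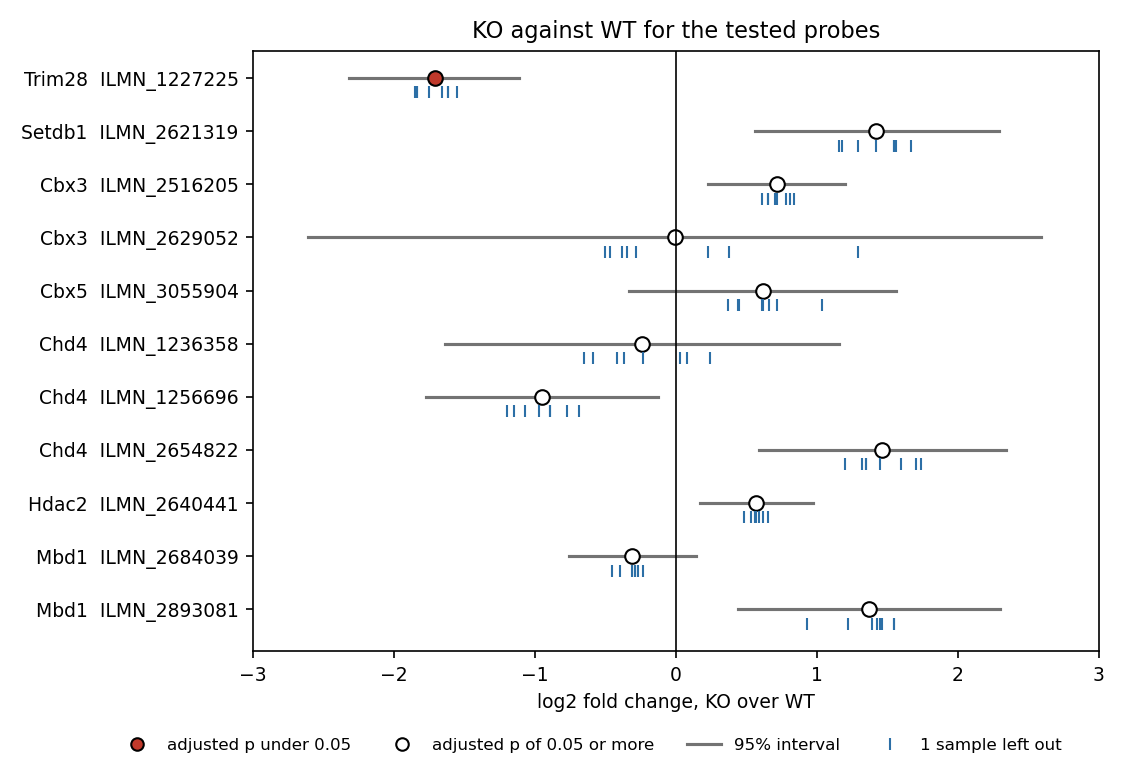
Log2 fold change of KO over WT for each tested probe of the complex genes, with its 95% interval and the values with 1 sample left out as ticks beneath. Trim28 (-1.71) is the only filled point, past an adjusted p of 0.05. The ticks of Cbx3 at ILMN_2629052 run from -0.50 to 1.29.

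A8 was the highest or the lowest KO sample at 9 of the 11 tested probes of the complex genes, and the other KO samples at 5 or 6. Among the WT samples C6 and C8 each were so at 8, C9 at 5 and C4 at 2. Ties were counted, as for A8, A4 and A11 at the floor at ILMN_2684039. In a group of 4 any sample is an extreme at many probes, and the share over all tested probes was not computed. Without A8, Trim28 was still lower by limma (log2 fold change -1.75, adjusted p = 0.0162). The log2 fold change without A8 was 1.16 for Setdb1 (adjusted p = 0.103), 0.70 for Cbx3 at ILMN_2516205 (0.122) and 0.48 for Hdac2 (0.142). The dim Chd4 and Mbd1 probes ILMN_1256696 and ILMN_2684039 gave -1.07 and -0.29, and Chd4 at ILMN_1236358 gave -0.65. When arrays were weighted by their agreement, Setdb1, Chd4 at ILMN_2654822 and Mbd1 at ILMN_2893081 passed as higher (adjusted p = 0.0252, 0.0131 and 0.0416 in limma). Chd4 at ILMN_1256696 passed as lower (0.0366). With these weights, from 0.307 for A8 to 3.56 for A13, 836 of the 12259 tested probes passed as higher and 702 as lower. Without weights these numbers were 301 and 381. By the authors' deposited table, 5 of the 10 partner probes had a p under 0.05 as higher and 0 as lower, and 0 passed after adjustment. Of all 18468 p-values in the authors' deposited table, dim probes included, 8.26% were under 0.05 as higher and 5.04% as lower, and 0.152% and 0.211% after adjustment.

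The remaining machinery around KAP1 was read from 6 lists, in which 36 of 60 genes had a tested probe, each represented by its brightest one. None of the 36 passed in limma, and 6 had an unadjusted p under 0.05, 4 as higher and 2 as lower, against the 14.6% and 10.4% of all tested probes given above. By the authors' deposited table, 6 of the 36 had a p under 0.05 as deposited, again 4 as higher and 2 as lower, and 0 after adjustment over its 18468 p-values. The median log2 fold change over the 36 was 0.11, close to the 0.09 of all tested probes, with 21 above 0. These medians and counts include A8, which was at the floor of 20 for Rbbp7, Mbd3 and Pias4. There the other KO samples read 433 to 508, 79.6 to 87.1 and 111 to 124. At other genes A8 was the highest KO sample, as at Daxx (255 against 103 to 126).

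Among 8 other NuRD subunit genes, 5 had a log2 fold change above 0, with a median of 0.18. Mta3, which encodes a scaffold subunit, had the smallest p of them. It read 326, 408, 250 and 344 in the KO samples, and 793, 441, 693 and 607 in the WT samples, with no overlap. It was 1.89-fold lower in KO cells (adjusted p = 0.059 in limma), and its other probe was 1.26-fold lower. It passed without WT sample C6 (0.0256) and in 4 other settings of the fit, with adjusted p from 0.0224 to 0.049. Calls over the whole array also rose without C6, as given above. The scaffold gene Gatad2b was 1.41-fold higher (adjusted p = 0.342).

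Of the TIF1 relatives and ubiquitin ligase partners, 2 of 4 genes were tested. Mdm2, which encodes the p53 ubiquitin ligase that KAP1 binds, read 360, 418, 324 and 330 in KO and 244, 243, 260.5 and 244 in WT samples. The groups did not overlap, and the 1.44-fold difference did not pass (adjusted p = 0.0983 in limma), with 1.18-fold at its other probe. Trim33, which encodes TIF1 gamma, a regulator of erythroid transcription, was 1.29-fold higher in KO with overlap (adjusted p = 0.473).

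Of the SETDB1 cofactors and the HUSH silencing complex, 2 of 6 genes were tested. Morc2a, an ATPase that works with HUSH, was 2.08-fold higher in KO (83.3, 129, 82.6 and 84.9, against 35.4, 72.8, 78.1 and 20 in WT). It did not pass (adjusted p = 0.165 in limma). Atf7ip, the SETDB1 stabilising partner, was 1.13-fold lower (adjusted p = 0.586). Of 9 other H3 lysine 9 and heterochromatin genes, 4 were tested and none had an unadjusted p under 0.05. Uhrf1, which couples histone marks to maintenance DNA methylation, was bright in all samples, from 2781 to 4653, with a 1.21-fold difference (adjusted p = 0.385). Daxx, a histone H3.3 chaperone, was 1.32-fold higher (adjusted p = 0.436).

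KAP1 carries SUMO and attaches it to itself, and that modification recruits SETDB1 and NuRD. Among 10 tested SUMO pathway genes the median log2 fold change was 0.13, with 6 above 0. Sumo2 read 3214, 2969, 3370 and 3348 in KO and 2093, 2337, 2337 and 2400 in WT samples. The groups did not overlap and differed by 1.41-fold, without passing (adjusted p = 0.10 in limma), though it passed with array weights (0.0417) and with an intensity trend and robust prior (0.0323). The SUMO protease gene Senp7 was 1.30-fold higher (adjusted p = 0.296).

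Among 10 other deacetylase, Sin3 and CoREST genes, 4 had a log2 fold change above 0, with a median of -0.07. Hdac4, a class IIa deacetylase, was dim, at 30.9, 22.1, 21.7 and 24.3 in KO and 48.4, 31.6, 47.4 and 68.5 in WT samples. It was 1.93-fold lower (adjusted p = 0.0643 in limma), and its other probe was 1.18-fold higher. It passed without WT sample C6 (0.0225) and with array weights (0.0252), 2 settings that raised the calls over the whole array. Rcor1, which encodes the CoREST scaffold of the LSD1 complex, was 1.38-fold higher (adjusted p = 0.165). Its other probe was 2.34-fold higher (adjusted p = 0.0788).

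**Figure D3:**
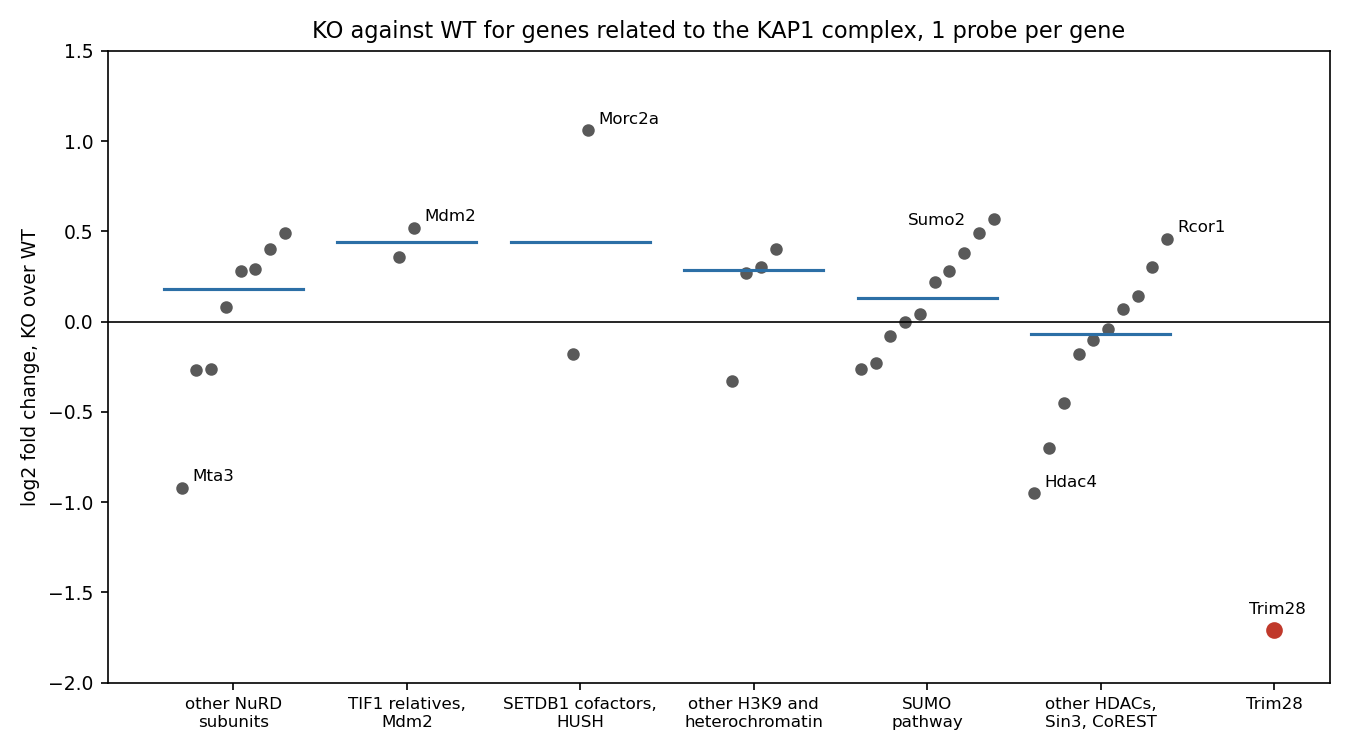
Log2 fold change of KO over WT for the 36 tested genes of the 6 related lists, 1 point per gene at its brightest tested probe, with the median of each list as a blue line and Trim28 in red. The 6 named genes of the lists have an unadjusted p under 0.05, and none passed after adjustment. The values lie between -0.95 and 1.06, against -1.71 for Trim28.

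The groups also differed in markers of the sorted and of other cell types. Over all tested probes, 2.46% passed as higher and 3.11% as lower, and no such share was computed for sums of markers. Of 8 erythroid markers 7 were on the array, all above the floor in every sample, with 1 of them, Alas2, passing as lower. Gata1 (178 to 400) and Epor (388 to 736) were far dimmer than the others. The summed intensity of the erythroid markers was 61264 to 68722 in KO and 78418 to 101750 in WT samples. It is made mostly of Alas2, Slc4a1 and Hba-a1, whose means were lower in KO, and of the 7 markers 4 were lower and 3 higher on average. The higher ones were Tfrc, Gata1 and Klf1, an erythroid transcription factor gene (log2 fold change 0.32, adjusted p = 0.255 in limma). B-cell markers summed to 1897 to 4196 in KO and 5083 to 8472 in WT, with 8 of 9 lower on average and 1 called lower. The called gene was H2-Aa (adjusted p = 0.0425 in limma), and Cd74 was the largest part of each sum. Ebf1, Cd79b, Vpreb1, Vpreb3 and Igll1 did not pass (adjusted p from 0.0656 to 0.324 in limma). Sums without H2-Aa and Cd74 were not computed. Pax5 was at the floor throughout, and Ms4a1, above it in C6 alone, was not tested. Megakaryocyte and platelet markers summed to 639 to 888 in KO and 365 to 527 in WT (1 of 7 called higher, Ppbp and Gp1bb at the floor). The called gene, Tubb1, read 122 to 458 in KO and 20 in all WT samples, and without it the sums overlapped, at 430 to 517 and 345 to 507. Stem and progenitor markers summed to 121 to 460 in KO, highest in A8, and 100 to 121 in WT, so that KO sample A13 and WT sample C4 overlapped. Of these 5 markers 0 were called in limma, with Flt3 at the floor and Meis1, above it in A4 and A8 alone, not tested. The part of the marked cell types in the differences above was not tested. Sums also overlapped for neutrophil and myeloid markers (47951 to 90336 against 47598 to 82388, 0 of 9 called). So did those of macrophage (898 to 2320 against 1107 to 1707, 0 of 7 called) and T and NK cell markers (307 to 865 against 241 to 660, 1 of 7 called lower). Mast cell and basophil sums overlapped as well (386 to 539 against 343 to 577, 2 of 5 called higher, 1 lower, and Ms4a2 at the floor). Cpa3 and Fcer1a were called higher (log2 fold change 2.63 and 1.66) and Prss34 lower (-1.97), so this overlap covers opposite calls.

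The genes most like Trim28 were found by Pearson correlation of log2 intensity over the 8 arrays, among 4954 named genes above the floor on all of them. The closest were Cdr2 (r = 0.991), Paqr9 (0.989), the F-box gene Fbxo9 (0.989), Asb1 (0.988) and Alas2 (0.985), the erythroid enzyme gene of heme synthesis. These 5 were 2.07-fold to 3.83-fold lower in KO cells, so part of each r is the difference between the groups. After each group's mean was removed, r was 0.90 to 0.96. The 5 genes were picked for a high r over these same 8 arrays, so this is not a separate check. The most opposite were Zdhhc6 (-0.987), Lsm4 (-0.984), Rps2 (-0.982), Tmem14c (-0.982) and Polr2l (-0.982), 1.51-fold to 2.05-fold higher in KO cells, of which Lsm4, Rps2 and Tmem14c passed the threshold. The points share their arrays and their normalization, and these correlations are a description with 8 points each. Within the complex, r with Trim28 ran from -0.899 for Cbx3 at ILMN_2516205 to 0.375 for Chd4 at ILMN_1236358, over the 6 other probes above the floor on all arrays. After each group's mean was removed, these r were -0.59 and 0.70, while that of Hdac2 went from -0.87 to -0.24 and that of Mbd1 at ILMN_2893081 from -0.637 to 0.31.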

How the data were processed

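Total RNA from CD71+Ter119+ sorted bone marrow cells was measured on 8 Illumina arrays, 4 KO and 4 WT, grouped by title. The intensity values were deposited by the authors after BeadStudio 3.1.3, per the submitters' processing notes; no source used here gives the background or normalization settings. The arrays share their values at 4959 of the 5000 highest ranks (within 0.1 percent), and 73.1% to 73.2% of probes sit at the floor of 20. A second deposited table gives a signed fold score and a p-value per probe; the score equals the ratio of geometric means, and the p-value an unequal-variance test on log2 values. The remaining table has 8 signal columns that match no sample label and was not used.

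Probe names come from the platform annotation: 1 symbol for 34885 probes, several for 18 and none for 10378. No coordinates are given, since no build is stated for the array. Intensities were converted to log2 and fitted with lmFit and eBayes in limma 3.58.1 (R 4.3.3), without covariates, over probes above the floor on at least 4 of 8 arrays; p-values were Benjamini-Hochberg adjusted over all of them. Intervals are 95% intervals of the moderated fit. The fit was tested on simulated data with normal noise and no floor, so that test does not bear on probes near the floor. The number of arrays limits the precision.

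The members and lists were chosen with earlier results of these data known. All member probes are reported, and per list the genes with the 2 smallest p, since none passed; genes are represented by their tested probe of highest mean. Alternatives were other filters, priors, array weights, an added intensity of 16, median centring, the authors' p-values and leaving out each sample.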

Additional observations from a re-analysis of the deposited data

Results flagged for a closer look

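Within groups of 4 samples, 1 sample lay far from the other 3 (by the 95% limit of Dixon's test) in 9 of 29 groups whose values differed. Chance flags about 1 in 20 groups, and 7 of the 9 have the 3 other samples at the floor of 20, where any single reading stands apart. The remaining 2 are both KO sample A8: Cbx3 at ILMN_2629052 read 27.5, against 835 to 1130 in the other KO samples, and Mbd1 at ILMN_2893081 read 556, against 152 to 185. A8 also stood alone above the floor at Trim24 ILMN_1238199 (42.6) and Mbd1 ILMN_1224291 (37.4). The others were Cbx3 ILMN_2847230 in A11 (24.1), Chd4 ILMN_2697652 in WT sample C6 (25.6), Hdac2 ILMN_1231785 in A4 (20.1), Mbd1 ILMN_2543657 in WT sample C9 (23.7) and Mbd1 ILMN_2684039 in A13 (25.2).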

How the results depend on the processing

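The fall of Trim28 kept its value of -1.71 (log2) but lost its call when all probes were tested without a filter on dim ones (adjusted p = 0.0925) and with the authors' deposited p-values adjusted here (0.0903). The unfiltered fit tests 45281 probes and also estimates its shared spread from all of them. The cause of either loss was not tested. It passed under the other filter, prior, array weights, added intensity and centring (adjusted p from 0.00209 to 0.00851) and without any 1 sample.

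Probes higher and lower in KO cells numbered 301 and 381, against 74 and 78 without a filter, 836 and 702 with array weights, and 28 and 39 by the authors' p-values; 171 were higher among probes above the floor on all 8 arrays. Leaving out 1 sample gave 91 (without C4) to 557 (without C6) higher and 162 (without A13) to 586 (without C6) lower.

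Probes of the complex genes passing as higher numbered 0, against 3 with array weights and 0 to 2 with 1 sample left out (1 without A8, 2 without C6). As lower there was 1, against 0 without a filter, 0 by the authors' p-values and 2 with array weights. Genes of the related lists numbered 0, against 1 above the floor on all arrays, 2 with an intensity trend and robust prior, 3 with array weights, 1 with 16 added before log2, and 0 to 2 with 1 sample left out (2 without C6). Mta3 was among them in each of these settings that gave any. Cbx3 at ILMN_2629052 turned from -0.01 to 0.95 with array weights and 0.11 with 16 added, and ran from -0.50 (without A13) to 1.29 (without A8). Chd4 at ILMN_1236358 ran from -0.65 (without A8) to 0.24 (without C8). The cause of these shifts was not tested. Of 161 comparisons of a single probe with an alternative, 144 kept direction and side of the threshold. No paired analysis was possible because the sample codes of the groups differ in letter and no label pairs them. Signals near the floor of 20 and 4 arrays a group limit what can be told of Setdb1, Trim24 and the dim Chd4 and Mbd1 probes.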
